A study of Mus musculus with 6 samples.

Results

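The 9 genes described here, Tdo2, Kmo, Kynu, Haao, Acmsd, Tat, Hpd, Hgd and Fah, encode enzymes that break down the aromatic amino acids tryptophan, phenylalanine and tyrosine. They were taken by name, by matching the gene identifiers of the deposited count table to GENCODE symbols. All 9 were found among the 54446 genes of the table, and all 9 passed the filter on low counts that left 15368 genes for testing. The series holds poly-A RNA libraries of mouse liver cells at 0, 2 and 7 weeks, with 2 libraries per week. Its title names a treatment, MET/CAT with SB transposase, an enzyme that inserts transposon DNA into chromosomes. The title speaks also of untreated cells, and the labels do not say which libraries those are. CAT is not spelled out, and no other allele or agent is labelled. Every library is labelled as a mix of FVB/N with a C57BL/ strain, C57BL/6 in the first week 0 library. The number after C57BL/ differs in each of the others, so their background is unsure. The sources used here do not give age, sex, dose, the driving promoter or the cells reached, and nothing says whether the 2 libraries of a week came from separate animals. The p-values therefore measure only the spread between these libraries, which may be technical.

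Liver is the main site of aromatic amino acid breakdown. Tryptophan is opened by tryptophan dioxygenase (Tdo2) and passes along the kynurenine pathway through kynurenine monooxygenase (Kmo), kynureninase (Kynu) and 3-hydroxyanthranilate dioxygenase (Haao). The unstable product of Haao either closes by itself to quinolinate, from which quinolinate phosphoribosyltransferase (Qprt) starts the synthesis of NAD, or is turned aside towards complete oxidation by the decarboxylase Acmsd. Tyrosine, to which phenylalanine is converted, passes through tyrosine aminotransferase (Tat), 4-hydroxyphenylpyruvate dioxygenase (Hpd), homogentisate dioxygenase (Hgd), the isomerase Gstz1 and fumarylacetoacetate hydrolase (Fah). Tdo2 and Tat are textbook glucocorticoid-inducible liver genes, and inherited loss of Fah, Hgd or Hpd causes disorders of tyrosine metabolism.

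Library totals ran from 49353453 to 58434358 deposited counts. The sex of the animals, as typed from the RNA, differed between weeks: the X-inactivation RNA Xist had 13236 and 12804 counts at week 2 and at most 15 in any other library, while the Y-linked Ddx3y had 0 counts in both week 2 libraries and 1897 to 2303 elsewhere. Week 7 against week 0 is thus the comparison between libraries of like (male) typing, and in both comparisons with week 2, time and sex cannot be told apart. Of 6 hepatocyte markers 5 were matched by symbol, and their summed level was 90300 to 90703 CPM at week 0, 108214 and 114371 at week 2, and 77256 to 77560 at week 7 (CPM, deposited counts relative to 1e6 counts of a library size scaled by TMM, which evens out differences in library composition). Albumin (Alb) made up most of this sum, with means of 65490, 95488 and 54244 CPM in the order of the weeks. Of these 5 markers, 0 were higher and 3 lower at week 7 than at week 0. By week 2 only 1, Alb, was higher and 4 were lower, so the higher sum of that week came from Alb alone. For example, the mean of Apoa1 went from 12792 to 8532 CPM and that of Serpina1a from 4357 to 1694. The part of these markers in the changes of the enzymes was not tested. Of 5 markers of kidney tubule, another tissue that carries this pathway, 3 had 0 counts in every library and all 5 together reached at most 0.287 CPM.

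Of the members on which the results turn most, 3 of the tyrosine pathway, Tat, Hpd and Hgd, are given with the 250 bases before their RefSeq start site (GRCm38.p6, gene strand, 5′ to 3′), so that the regions next to the promoters of genes that moved differently can be read side by side. The windows are chr8:109990186-109990435 (plus strand) for Tat, chr5:123182724-123182973 (minus) for Hpd and chr16:37579903-37580152 (plus) for Hgd. Capitals mark matches, on either strand, to 5 searched motifs: the TATA box TATAAA, the CCAAT box CCAAT, the glucocorticoid receptor half-site AGAACA, the HNF1 half-site GTTAAT and the FOXA core TGTTTAC.
Hpd: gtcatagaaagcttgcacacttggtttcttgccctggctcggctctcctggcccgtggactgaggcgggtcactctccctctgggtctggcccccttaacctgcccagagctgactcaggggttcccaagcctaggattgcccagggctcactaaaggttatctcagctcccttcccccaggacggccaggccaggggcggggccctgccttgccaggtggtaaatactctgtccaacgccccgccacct
Tat: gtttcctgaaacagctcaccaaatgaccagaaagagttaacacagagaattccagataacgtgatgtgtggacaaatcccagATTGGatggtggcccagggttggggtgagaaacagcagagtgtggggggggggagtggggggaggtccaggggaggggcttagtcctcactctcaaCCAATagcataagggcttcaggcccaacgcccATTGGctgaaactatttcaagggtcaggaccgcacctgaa
Hgd: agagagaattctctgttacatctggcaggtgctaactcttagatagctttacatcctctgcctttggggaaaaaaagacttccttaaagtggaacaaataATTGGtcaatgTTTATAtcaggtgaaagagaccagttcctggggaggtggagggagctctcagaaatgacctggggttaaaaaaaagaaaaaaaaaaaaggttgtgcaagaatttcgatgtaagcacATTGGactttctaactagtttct
The Tat window held 3 CCAAT boxes, at 168 to 164, 72 to 68 and 40 to 36 bases before the start. That of Hgd held 2, at 150 to 146 and 23 to 19, and a TATA box sequence on the opposite strand at 139 to 134. The Hpd window had no match. RefSeq windows were matched for 8 of the 9 members. Among these 8, CCAAT occurred in 3 (Hgd, Tat, Tdo2), TATAAA in 2 (Hgd, Tdo2), AGAACA and GTTAAT in 1 each (both Haao) and TGTTTAC in 0. Over all 32851 windows of the same length the shares were 33.8%, 12.4%, 16.1%, 6.43% and 3.17%, and no matches within the member windows overlapped. These matches are letters only and say nothing of binding.

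In summed CPM the 9 transcripts together were nearly level over the study. Their summed level was 5897 and 5602 CPM at week 0, 5974 and 5638 by week 2 and 5747 and 5755 by week 7, so that the weeks overlapped. They held 0.547% to 0.613% of the deposited counts of a library. In these unscaled shares both week 2 libraries, with 0.613% and 0.587%, stood above all others, which held 0.547% to 0.575%. The overlap of week 2 with the rest was thus seen only after TMM scaling. The summed CPM also joined moves in both directions. From week 0 to week 2 the mean of Hpd went from 1315 to 1933 CPM, that of Tdo2 from 1223 to 772 and that of Tat from 1461 to 1261. Within the summed CPM the members ranged widely. Per kilobase of exon (GENCODE M21 exon union, which may differ from the gene models behind the table), the week 0 level was highest for Hpd, with 949 and 924 CPM per kb. Tat followed with 623 and 607, and Tdo2 with 382 and 331. Fah had 306 and 285 CPM per kb at week 0, Hgd 278 and 280, and Haao 279 and 277. The ranges of Hgd and Haao overlapped at week 0, so their order is undecided, while every other pair of neighbours was apart. Further down came Kmo with 70.4 and 69.6 CPM per kb, Kynu with 21.6 and 20.7, and Acmsd with 10.2 and 10.1. At week 7 the order was the same except that Hgd, at 330 and 308 CPM per kb, stood above Fah, at 293 and 283. At that week the range of Hgd overlapped that of Tdo2 (317 and 381), and the range of Fah overlapped that of Haao (286 and 276).

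**Figure D1:**
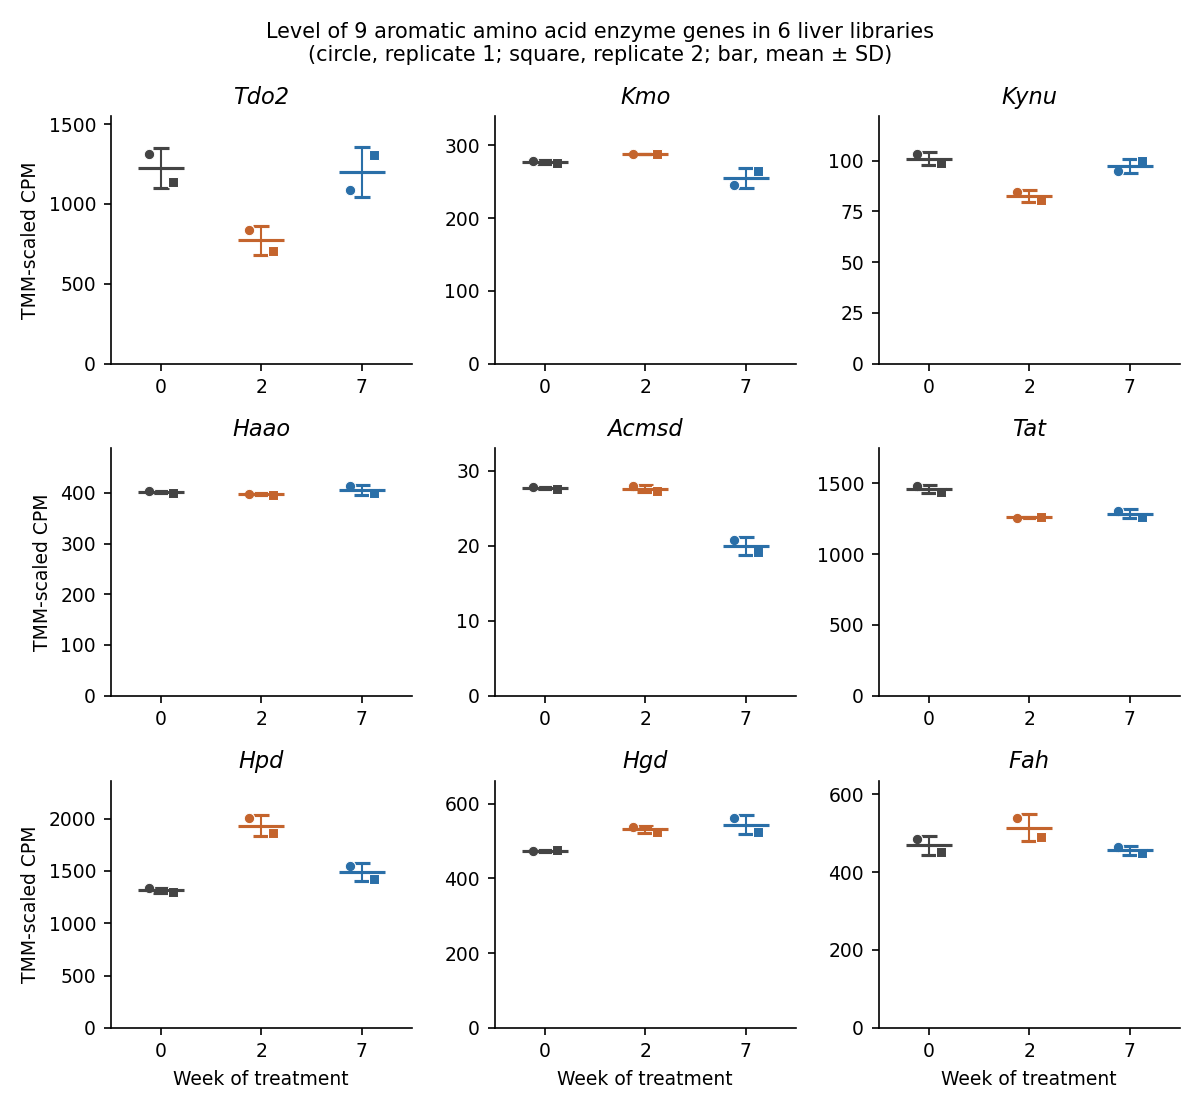
Level of each of the 9 enzyme genes in TMM-scaled CPM (y axis, from 0) at weeks 0, 2 and 7 (x axis), with 1 point per library and the mean ± SD of the 2 libraries of a week. Acmsd sat at 27.2 to 27.9 CPM in the 4 libraries of weeks 0 and 2 and at 19.1 and 20.8 at week 7, Haao stayed between 396 and 413 CPM throughout, and Tdo2 and Hpd set week 2 apart in opposite directions.

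Between week 0 and week 7, Acmsd and Tat fell and Hgd rose, and the other 6 members were not called. A call is an edgeR quasi-likelihood test with a Benjamini-Hochberg adjusted p under 0.05 over all 15368 genes. Thus 3 of 9 members were called, against 13.8% of all tested genes and 26.0% of the 5112 tested genes whose mean reached 20 CPM, as that of each member does. The 1 higher member compares with 7.58% of all tested genes called higher, and the 2 lower with 6.23% called lower. With so few members these counts say little beside that background. The changes were small: the median absolute log2 fold change of the 9 was 0.12, against 0.28 over all tested genes and 0.17 over those with at least 20 CPM. The largest was 0.47, for Acmsd. None of the 9 was called when tested against a fold change of 1.5.

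Acmsd (ENSMUSG00000026348), the decarboxylase that diverts the pathway from NAD synthesis, had 27.7 and 27.6 CPM at week 0, 27.9 and 27.2 by week 2 and 20.8 and 19.1 by week 7. Both week 7 libraries were below the other 4, and weeks 0 and 2 overlapped. The level fell 1.39-fold, from 27.7 ± 0.122 to 19.9 ± 1.21 CPM (SD, n = 2). The log2 fold change was -0.47 with a 95% interval of -0.69 to -0.26 (edgeR adjusted p = 0.0122), where the interval is approximated from the F statistic. These values rest on 976 to 1674 deposited counts per library, the fewest of any member. The log2 fold change was -0.53 without week 7 replicate 1 and -0.41 without week 7 replicate 2. It was -0.48 to -0.47 when any of the other libraries was left out. Leaving out week 0 replicate 1, week 0 replicate 2 or week 7 replicate 2 ended the call.

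The enzyme on the other side of the branch, Qprt, which is no member but uses the quinolinate that Acmsd activity withholds, had 149 and 150 CPM at week 0, 126 and 129 by week 2 and 187 and 174 by week 7. It rose 1.21-fold from week 0 to week 7 (log2 fold change 0.27, edgeR adjusted p = 0.00907). This call was lost without week 0 replicate 1 (0.0545) or week 7 replicate 1 (0.0521). The ratio of Qprt to Acmsd, computed within each library and chosen after the values were seen, was 5.36 and 5.43 at week 0, 4.51 and 4.72 by week 2 and 8.97 and 9.10 by week 7. It was 1.67 times as high at week 7 as at week 0, with no overlap between weeks. With 2 libraries against 2 an exact permutation test of a single value could not pass 0.05, so none is given. As both transcripts were scaled by the same factor, the ratio does not depend on library scaling.

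**Figure D2:**
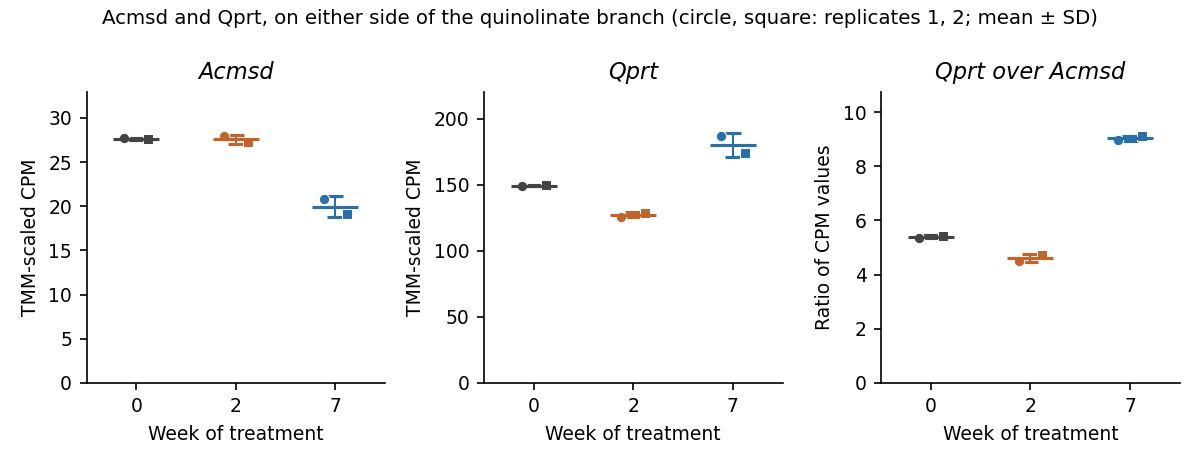
Acmsd and Qprt in TMM-scaled CPM (left and middle, y axes from 0) and the ratio of Qprt to Acmsd within each library (right) at weeks 0, 2 and 7, with 1 point per library and the mean ± SD of 2. The ratio was 5.36 and 5.43 at week 0, 4.51 and 4.72 by week 2 and 8.97 and 9.10 by week 7.

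Upstream on the kynurenine pathway no member was called between week 0 and week 7. Haao (ENSMUSG00000000673), which makes the precursor at the branch, had 403 and 400 CPM at week 0, 398 and 396 by week 2 and 413 and 399 by week 7. Its log2 fold change from week 0 to week 7 was 0.02 with a 95% interval of -0.06 to 0.10. Tdo2 (ENSMUSG00000028011), which commits tryptophan to the pathway, had 1312 and 1134 CPM at week 0 and 1088 and 1308 at week 7. These weeks overlapped, and the interval of -0.49 to 0.43 was the widest of the members (edgeR adjusted p = 0.942). Kmo (ENSMUSG00000039783), the hydroxylase of kynurenine, had 279 and 276 CPM at week 0, 288 and 288 by week 2 and 245 and 264 by week 7. Week 7 was below the other weeks in both libraries, and the log2 fold change against week 0 was -0.12 (adjusted p = 0.117, or 0.0499 without week 7 replicate 2). Without week 7 replicate 1 the change was -0.07 (0.429). Kynu (ENSMUSG00000026866), which cleaves the side chain of hydroxykynurenine, had 103 and 98.6 CPM at week 0 and 94.9 and 99.6 at week 7, which overlapped (adjusted p = 0.656).

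Kmo and Kynu are also known from macrophages. Of 9 Kupffer cell and macrophage markers, 0 were higher and 8 lower at week 7 than at week 0, and their summed level went from 530 CPM in each week 0 library to 758 and 772 by week 2 and 397 and 387 by week 7. Of 7 stellate cell and fibroblast markers 1 was higher and 4 were lower at week 7 than at week 0, and of 7 endothelial markers 0 and 1. Of all tested genes 7.58% were called higher and 6.23% lower between these weeks. The part of these cells in the values of Kmo and Kynu was not tested. In bulk tissue, fewer cells of a type and less RNA per cell cannot be told apart.

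On the tyrosine pathway Tat fell, Hgd rose, and Hpd and Fah were not called between week 0 and week 7. Tat (ENSMUSG00000001670), which takes the amino group from tyrosine, had 1481 and 1441 CPM at week 0, 1257 and 1264 by week 2 and 1309 and 1266 by week 7. Both later weeks lay below week 0. The fall from week 0 to week 7 was from 1461 ± 28.2 to 1287 ± 30.4 CPM, a log2 fold change of -0.18 with an interval of -0.25 to -0.11 (edgeR adjusted p = 0.00462). The call of Tat held with each library left out in turn. Hgd (ENSMUSG00000022821), which opens the ring of homogentisate, had 473 and 476 CPM at week 0, 538 and 524 by week 2 and 561 and 525 by week 7. Weeks 2 and 7 overlapped and both stood above week 0. From week 0 to week 7 it rose 1.14-fold (log2 fold change 0.19, interval 0.10 to 0.29, adjusted p = 0.0134). The call was lost without week 0 replicate 1 (0.0774), week 0 replicate 2 (0.0604) or week 7 replicate 1 (0.0634).

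Hpd (ENSMUSG00000029445), which converts 4-hydroxyphenylpyruvate to homogentisate, had 1333 and 1297 CPM at week 0, 2004 and 1863 by week 2 and 1551 and 1426 by week 7. The 3 weeks did not overlap. Week 7 was 1.13-fold above week 0 and missed the call narrowly, with a log2 fold change of 0.18, an interval of 0.06 to 0.29 and an edgeR adjusted p of 0.0509. With all 6 libraries it was called by DESeq2 (0.0299), with the replicate block (0.0183), median-of-ratios scaling (0.0457), total counts only (0.0203), counts divided by 4 (0.0428) and a minimum of 10 counts (0.0497). It was not called by limma voom (0.0723), without the filter (0.0658) or with upper-quartile scaling (0.0923). Leaving out week 2 replicate 1 (0.0416), week 2 replicate 2 (0.0439) or week 7 replicate 2 (0.0224) also brought it past the threshold, as did the fit to only the 4 libraries compared (0.0466). It was not called without week 0 replicate 1 (0.135), week 0 replicate 2 (0.212) or week 7 replicate 1 (0.193), the last with a log2 fold change of 0.12. Fah (ENSMUSG00000030630), the last step, had 486 and 452 CPM at week 0, 538 and 489 by week 2 and 465 and 448 by week 7. Weeks 0 and 7 overlapped, and the interval of their log2 fold change was -0.16 to 0.09 (adjusted p = 0.739). Within a library, Hgd stood to Tat at 0.319 and 0.331 at week 0 and at 0.429 and 0.415 at week 7 in CPM terms, a ratio chosen after the values were seen.

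**Figure D3:**
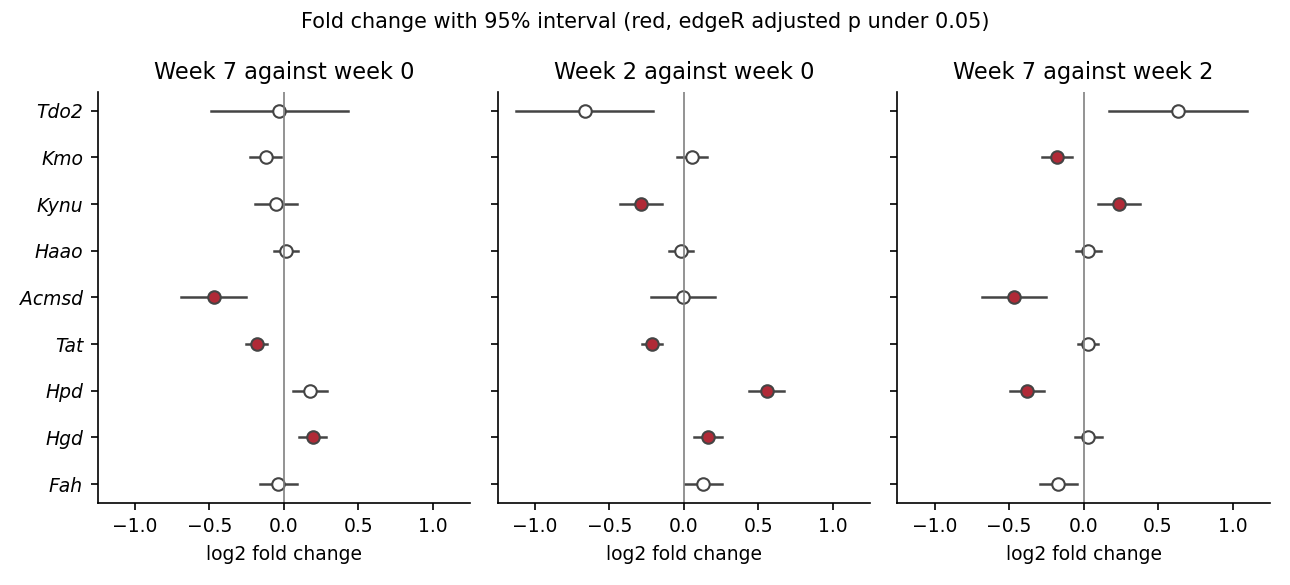
log2 fold change (x axis) of each of the 9 enzyme genes (y axis) in the 3 comparisons between weeks, with the 95% interval as a line and red points for edgeR calls. Acmsd, Tat and Hgd were called between weeks 7 and 0, and Tdo2 has the widest interval in each comparison, from -1.13 to -0.20 at week 2 against week 0.

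At week 2, in the libraries typed as female, Hpd and Hgd were higher than at week 0 and Tat and Kynu lower. These 4 of 9 members compare with 18.6% of all tested genes called, or 32.4% of those whose mean reached 20 CPM. The 2 higher and 2 lower members compare with 9.81% called higher and 8.81% called lower. The median absolute log2 fold change of the 9 was 0.16, against 0.32 over all tested genes and 0.19 at 20 CPM or more. Over all genes 1508 were higher and 1354 lower. With total counts only in place of TMM this split was 2007 and 913, the median of all genes moved from 0.01 to 0.10, and the member calls became 3 higher (Hpd, Hgd and Fah) and 1 lower (Tat).

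Hpd had the largest called change of the members, rising 1.47-fold from 1315 ± 25.5 to 1933 ± 99.9 CPM (log2 fold change 0.56, interval 0.44 to 0.67, edgeR adjusted p = 0.000172), and its call held without any 1 library. Tat fell by 0.21 on the log2 scale, with an interval of -0.28 to -0.14 (adjusted p = 0.0013), and its call also held without any 1 library. Hgd rose 1.12-fold (log2 fold change 0.16, adjusted p = 0.0219), a call lost without week 0 replicate 1 (0.108), week 0 replicate 2 (0.0839), week 2 replicate 1 (0.150) or week 2 replicate 2 (0.0754). Kynu had 84.7 and 80.5 CPM at week 2, below all 4 libraries of the other weeks. Its log2 fold change against week 0 was -0.29 (adjusted p = 0.0118), and the call was lost with total counts only (0.0505) and without week 0 replicate 1 (0.0795) or week 2 replicate 2 (0.0860).

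Tdo2 had the lowest week 2 values relative to the other weeks, with 837 and 707 CPM against 1088 to 1312 in the remaining 4 libraries. The log2 fold change against week 0 was -0.66 with an interval of -1.13 to -0.20, and edgeR did not call it (adjusted p = 0.0776). DESeq2 and limma voom did (2.88e-07 and 0.00803). Relative to its level, Tdo2 differed more between the 2 libraries of a week than the other members did, with SDs of 126, 92.0 and 156 CPM at weeks 0, 2 and 7. Acmsd, Haao and Kmo were not called between these weeks. Acmsd and Haao had log2 fold changes of 0.00 (interval -0.22 to 0.21) and -0.02 (-0.10 to 0.06), and Kmo one of 0.06 (-0.05 to 0.16). Fah was 0.13 above week 0 on the log2 scale and was not called (adjusted p = 0.137, or 0.0153 with total counts only). Its change was 0.08 without week 0 replicate 2, 0.06 without week 2 replicate 1 and 0.20 without week 2 replicate 2 (0.489, 0.602 and 0.0692).

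Week 7 against week 2 shares the week 2 libraries with the comparison before it and called 4 members, against 19.8% of all tested genes and 35.1% of those at 20 CPM or more. The 1 higher and 3 lower members compare with 10.1% called higher and 9.73% called lower. Over all genes 1545 were higher and 1495 lower, against 1248 higher and 1784 lower when only total counts were used. Upper-quartile scaling gave 1258 higher and 1799 lower. Under each of these scalings 0 members were called higher and 4 lower. Kynu was higher, with a log2 fold change of 0.24 (edgeR adjusted p = 0.0278). Acmsd, Hpd and Kmo were lower, at -0.47 (0.00906), -0.38 (0.00139) and -0.18 (0.0246). The call of Kynu was lost with the replicate block (0.0531), total counts only (0.0676), upper-quartile scaling (0.0836) and without week 2 replicate 1 (0.0653), week 2 replicate 2 (0.155) or week 7 replicate 2 (0.128). Acmsd was lost without week 2 replicate 1 (0.0595) or week 7 replicate 2 (0.0600), and Kmo without week 2 replicate 1 (0.122), week 2 replicate 2 (0.114) or week 7 replicate 1 (0.115). Hpd was called without any 1 library. Tdo2 was 1.55-fold higher at week 7 than at week 2 and not called by edgeR (adjusted p = 0.0824), whereas DESeq2 gave 1.15e-06 and limma voom 0.00909. Fah, at a log2 fold change of -0.17, missed the call (0.0613) and passed it with upper-quartile scaling (0.0263), total counts only (0.0151), the replicate block (0.0286), counts divided by 4 (0.0437), no filter (0.0411) and without week 2 replicate 2 (0.0364). Without week 2 replicate 1 its log2 fold change was -0.10 (0.367). Haao, Tat and Hgd differed by 0.03 each on the log2 scale and were not called.

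Of 13 further genes of tryptophan breakdown and NAD synthesis, 12 were tested. Of these, 2 were higher and 2 lower at week 7 than at week 0, with a median log2 fold change of 0.01. Between these weeks 13.8% of all tested genes were called, or 26.0% of those whose mean reached 20 CPM. Kyat3, an aminotransferase that makes kynurenate, fell by 33.3%, from 188 ± 4.18 CPM at week 0 to 126 ± 2.61 at week 7 (edgeR adjusted p = 6.12e-05), in a call that held without any 1 library. Beside Qprt, Dhtkd1 rose to 103 from 86.4 CPM and Gcdh, an enzyme of glutaryl-CoA oxidation, fell to 346 from 385 CPM. Both had adjusted p above 0.01. Gcdh lost its call with total counts only (0.0748) and only the 4 libraries compared (0.0564), and Dhtkd1 with the replicate block (0.0535). Both also lost it without certain libraries: Dhtkd1 without week 0 replicate 1 or 2 (0.127 and 0.104) or week 7 replicate 1 or 2 (0.106 and 0.0926), and Gcdh without week 0 replicate 1 or 2 (0.0874 and 0.105), week 2 replicate 2 (0.0515) or week 7 replicate 1 (0.0871). Outside the rule for naming genes, Ido1, the dioxygenase of immune cells that shares the reaction of Tdo2, had 18 counts in 1 week 2 library and 0 elsewhere, and its liver paralog Ido2 was at 67.0 and 69.8 CPM at weeks 0 and 7 (adjusted p = 0.664). At week 2, Aadat, another kynurenine aminotransferase, fell 1.91-fold, from 122 ± 5.74 CPM at week 0 to 63.9 ± 3.89 (adjusted p = 1.93e-05). It and Qprt were the 2 of 12 tested genes that were lower at week 2 than at week 0. Kyat3, Gcdh and Aldh8a1 were the 3 that were higher, with log2 fold changes of 0.30, 0.20 and 0.24. These calls compare with 18.6% of all tested genes, or 32.4% of those whose mean reached 20 CPM. The call of Qprt, at -0.23 (0.0140), was lost with total counts only (0.121) and without week 0 replicate 1 (0.0610), week 0 replicate 2 (0.0682), week 2 replicate 1 (0.0860) or week 2 replicate 2 (0.0593). From week 2 to week 7, 5 of the 12 rose and 3 fell. Of all tested genes 19.8% were called between these weeks, or 35.1% of those whose mean reached 20 CPM. Nadsyn1, the last enzyme of NAD synthesis, was among those that rose. It had 12.2 and 10.7 CPM at week 2 and 21.1 and 19.1 at week 7 (edgeR adjusted p = 0.00503).

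Of 12 further phenylalanine and tyrosine genes, all tested, 0 were higher and 3 lower at week 7 than at week 0. The share called between these weeks was 13.8% over all tested genes and 26.0% over those whose mean reached 20 CPM. The 3 that fell were Pts, an enzyme of tetrahydrobiopterin synthesis, Pcbd1, which recycles that cofactor, and Gchfr, a regulator of Gch1. The other listed genes of this cofactor, given outside the rule for naming genes, were not called: Gch1, its first enzyme, had means of 135 CPM at week 0 and 145 at week 7, Qdpr 187 and 179, and Spr 116 and 59.2. For the 3 called genes the log2 fold changes were -0.56, -0.21 and -0.22 (edgeR adjusted p = 0.0201, 0.0229 and 0.0485). Each of these calls was lost under some alternative. Gchfr was lost with limma voom (0.0660), the replicate block (0.0854), total counts only (0.110) and only the 4 libraries compared (0.0892), and Pcbd1 with total counts only (0.0641) and only those 4 libraries (0.0584). By library, Pts was lost without week 0 replicate 1 or 2 (0.107 and 0.0518) or week 7 replicate 2 (0.109), and Pcbd1 without week 0 replicate 2 (0.152) or week 7 replicate 1 or 2 (0.109 and 0.0684). Gchfr was lost whichever of the 6 libraries was left out, with 0.0503 to 0.224. Got1, the cytosolic aspartate aminotransferase, was 4.64-fold higher at week 2 than at week 0, at 218 ± 6.21 against 47.1 ± 0.969 CPM, and it was at 51.6 CPM in each week 7 library. At week 2, Gch1 and Pcbd1 were also called higher than at week 0 (0.0415 and 0.0422). Gch1 lost its call without week 0 replicate 1 or 2 (0.213 and 0.0823), week 2 replicate 1 or 2 (0.175 and 0.138) or week 7 replicate 2 (0.0508), and Pcbd1 without week 0 replicate 1 (0.260), week 2 replicate 1 or 2 (0.184 and 0.147) or week 7 replicate 1 or 2 (0.0534 and 0.0540). Both were lost too with the replicate block (0.0740 and 0.0588) and with only the 4 libraries compared (0.0506 and 0.0545). Gstz1, which acts between Hgd and Fah, had 668 CPM in week 0 replicate 1 and 372 to 403 in the other 5 libraries, and Afmid, which acts between Tdo2 and Kmo, had 194 CPM in week 2 replicate 1 and 44.2 to 71.4 elsewhere. These 2 genes were singled out after their values were seen and were not called in any comparison.

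Of 7 listed amino acid carrier genes, all tested, 3 were higher and 0 lower at week 7 than at week 0. The median log2 fold change of the 7 was 0.26, against 0.00 over all tested genes. Of all tested genes 7.58% were called higher and 6.23% lower. Slc16a10, the aromatic amino acid uniporter also called TAT1, had 69.3 and 63.8 CPM at week 0, 133 and 128 by week 2 and 138 and 146 by week 7. It rose 2.13-fold by week 7 (edgeR adjusted p = 1.13e-05) and 1.96-fold by week 2 (9.42e-06). Slc7a5, the large neutral amino acid exchanger, went from 2.14 and 2.24 CPM at week 0 to 6.35 and 5.52 at week 7 (adjusted p = 0.00293). Slc43a1 rose 1.79-fold (0.0257), which was lost without week 0 replicate 1 (0.128) or week 7 replicate 1 (0.147), in the fit to only the 4 libraries compared (0.0525) and with the replicate block (0.0513). At week 2, 4 carriers, with Slc3a2, the partner chain of Slc7a5, among them, were higher than at week 0 and 1, Slc38a4, was lower. Between these weeks 9.81% of all tested genes were called higher and 8.81% lower.

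In the list of NAD salvage and use, 1 of 8 tested genes was higher and 3 were lower at week 7 than at week 0. These calls compare with 13.8% of all tested genes, or 26.0% of those whose mean reached 20 CPM. Nampt, the rate-limiting enzyme of NAD salvage from nicotinamide, had 156 and 148 CPM at week 0, 159 and 144 by week 2 and 97.9 and 107 by week 7. It fell 1.49-fold between weeks 0 and 7 (edgeR adjusted p = 0.000733), and as for Acmsd the libraries of weeks 0 and 2 overlapped while both of week 7 were lower. Nnmt, which methylates nicotinamide, rose 1.99-fold from 8.37 ± 0.373 to 16.7 ± 0.907 CPM (0.00023), and stood at 67.5 ± 2.36 CPM at week 2. The aldehyde oxidase gene Aox3 had a mean of 1018 CPM at week 0 and 729 at week 7, with 120 at week 2, and its fall from week 0 to week 7 was called (2.21e-05). Its relative Aox1 fell too (adjusted p = 0.0157), in a call lost without week 0 replicate 1 or 2 (0.0946 and 0.0530) or week 7 replicate 1 (0.0916). Of 3 tested genes of the serotonin and amine branch, 0 were higher and 1 was lower at week 7 than at week 0. At week 2, 1 was higher and 1 lower than at week 0. Of all tested genes 13.8% and 18.6% were called in these comparisons, and 26.0% and 32.4% of those whose mean reached 20 CPM. Ddc, the aromatic amino acid decarboxylase, fell 1.77-fold from 43.9 ± 0.911 to 24.8 ± 1.44 CPM at week 7 (edgeR adjusted p = 0.000948) and 1.87-fold at week 2 (0.000308). Maob, a monoamine oxidase, was 0.84 higher at week 2 than at week 0 on the log2 scale (5.43e-06). Tph1, Aanat and Asmt had 0 counts in all libraries.

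Of 16 regulators and glucocorticoid-responsive genes, 4 were higher and 4 lower at week 7 than at week 0, and 6 were higher and 6 lower at week 2. Of all tested genes 13.8% and 18.6% were called in these comparisons, and 26.0% and 32.4% of those whose mean reached 20 CPM. The glucocorticoid receptor gene Nr3c1 was at 92.1 CPM at week 0 and 87.3 at week 7 (edgeR adjusted p = 0.526), and is given outside the rule for naming genes. Of the glucocorticoid targets Sgk1 fell by 0.85 and Tsc22d3 by 0.36 on the log2 scale at week 7 (adjusted p = 0.00186 and 0.00848, the latter 0.0621 without week 0 replicate 1). Over the same interval the metallothionein gene Mt2 rose 11.0-fold and the forkhead factor gene Foxa2 2.16-fold, while G6pc fell by 0.28 and Cebpa rose by 0.28 on the log2 scale. The remaining calls at week 7 were the glucocorticoid targets Zbtb16 and Fkbp5, outside the rule for naming genes and not recomputed under the alternatives. Zbtb16 was higher by 0.69 on the log2 scale and Fkbp5 had a log2 fold change of -0.29 (edgeR adjusted p = 0.00591 and 0.0247). Per1, another target given outside that rule, had means of 30.9 CPM at week 0 and 30.7 at week 7 and was not called. The glucocorticoid targets differed in direction at week 2 against week 0 as well: Fkbp5 was 3.70-fold higher, and Tsc22d3 had a log2 fold change of -0.52 (0.000707). Those of Cebpb and G6pc were -0.71 and -0.51.

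**Figure D4:**
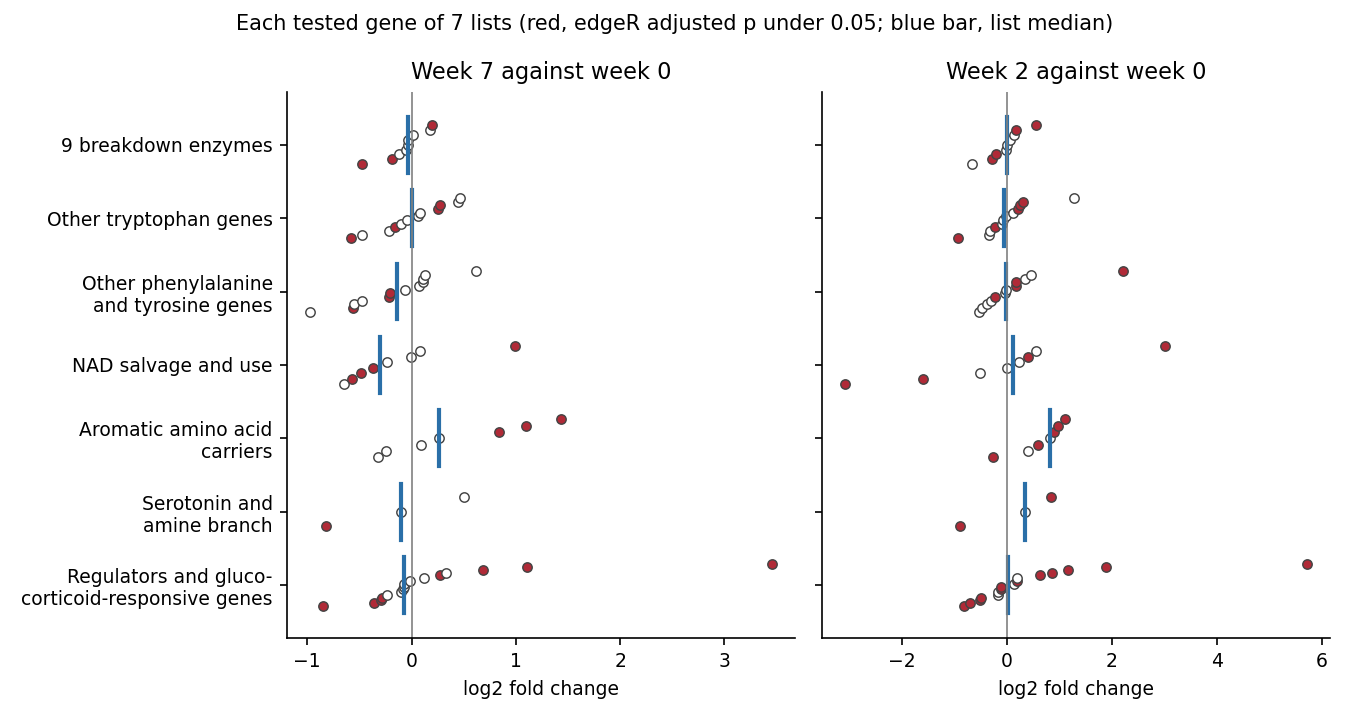
log2 fold change (x axis) of each tested gene of the 9 enzymes and 6 further lists (y axis) at week 7 (left) and week 2 (right) against week 0, in red where edgeR called the gene, with the list median as a blue bar. The enzymes lie within 0.47 of 0 at week 7 and within 0.66 at week 2, while the carriers have medians of 0.26 and 0.81.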

How the data were processed

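Poly-A RNA of mouse liver cells was sequenced in 6 libraries. Per the labels' protocols, libraries were made with a TruSeq V2 kit, which does not mark strand, and sequenced as paired ends. Per the submitters' processing notes, Bowtie 0.12.2 and the build mm8 were used, with no role given. The sources used here do not name the counting program or its gene models. The table deposited by the authors holds estimated counts per Ensembl gene, all whole, so that rounding changed 0 values. Its low values are stepped: 68.3% to 69.6% of those from 4 to 43 were a multiple of 4 or 1 above it, so a deposited count is not 1 read. Of 54446 identifiers, 54409 had a GENCODE M21 symbol.

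Genes were filtered with filterByExpr and fitted in edgeR 4.0.16 (R 4.3.3) with TMM scaling and a robust quasi-likelihood model over all 6 libraries (3 residual degrees of freedom), 2-sided, with Benjamini-Hochberg adjustment over 15368 genes. Alternatives were other scalings and filters, counts divided by 4, each library left out in turn, a replicate block, DESeq2 1.42.0 and limma 3.58.1 voom, and stricter thresholds. Figures used matplotlib 3.10.9. The fit was also run on simulated counts with known fold changes, with a spread set below the common estimate for these libraries. Recovery was required only for changes larger than any called here for a member. That run therefore does not bear on changes as small as those of the members. Groups and replicate numbers came from the sample titles. The members and gene lists were chosen with earlier results of these data known. All 9 members are named, and from each further list at most 3 called genes per direction and comparison. A few others are named as outside this rule, or as singled out after their values were seen. Results for 1 listed gene and for 1 promoter window are not reported here.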

Additional observations from a re-analysis of the deposited data

How the results depend on the processing

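The alternatives changed how many members were called rather than the direction of any call. At week 7 against week 0, 1 of 9 was called at an adjusted p under 0.01 and 0 were called against a fold change of 1.5, and leaving out 1 library gave 1 to 4. At week 2 against week 0 these were 2, 0 and 2 to 4, and at week 7 against week 2 they were 2, 0 and 1 to 4. The lowest member counts came without week 0 replicate 1 or 2 (1 each), without week 0 replicate 1 or week 2 replicate 2 (2 each), and without week 2 replicate 1 (1) or week 7 replicate 2 (2), in the same order. Over all genes, an adjusted p under 0.01 gave 1008, 1574 and 1632 calls in the same order and the fold change of 1.5 gave 283, 663 and 585. Leaving out 1 library gave 1298 to 1856, 1801 to 2752 and 1842 to 2961. It moved the count by over 1.5 times without week 0 replicate 1 (1328), week 0 replicate 2 (1380) or week 7 replicate 1 (1298) in the first comparison, week 2 replicate 1 (1801) or 2 (1826) in the next, and the same 2 libraries (1842 and 1923) in the last. Of 486 alternative values for the 9 members, 405 kept direction and side of the threshold, 41 lost a call, 22 gained one and 18 changed sign, each of the last between uncalled values. With total counts only the log2 fold changes that changed sign were 0.0864 for Acmsd and 0.0748 for Haao at week 2 against week 0, -0.0220 for Haao, -0.0236 for Hgd and -0.0251 for Tat at week 7 against week 2, and 0.0061 for Tdo2 at week 7 against week 0. With upper-quartile scaling they were 0.0260 for Acmsd and 0.0143 for Haao at week 2 against week 0, -0.0086 for Haao at week 7 against week 0, and -0.0229 for Haao, -0.0248 for Hgd and -0.0259 for Tat at week 7 against week 2. Leaving out 1 library moved sign-changing values over -0.0244 to 0.0154 for Acmsd at week 2 against week 0, -0.0179 to 0.0776 for Hgd at week 7 against week 2 and, at week 7 against week 0, -0.1680 to 0.0985 for Tdo2, -0.0075 to 0.0426 for Haao and -0.0875 to 0.0152 for Fah. The cause was not tested.

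The replicate numbers were not taken to pair the libraries. Over 15368 genes the difference between replicates 1 and 2 correlated between weeks at -0.002, -0.015 and -0.013. With the replicate block, 4 members were called in each comparison, against 3, 4 and 4, and 1702 genes at week 7 against week 0.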
